A study of Macaca fascicularis with 3 samples.

Results

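Muscle fibres sit in a connective tissue made largely by stromal cells, the fibroblast-type cells that carry the receptor PDGFRA and secrete the proteoglycan decorin (DCN). The 8 genes described here encode proteins that such cells place outside the cell: PRG4, ASPN, CCN3, CCBE1, TNC, ELN, FBLN1 and MGP. All 8 have a row in each of the 3 count tables, out of 15722 genes with a unique symbol in the nuclei tables and 18136 in the cell table. CCN3 stands under its older name NOV in the cell table. The members were chosen by their measured counts: stromal nuclei of the eye and limb muscles had been seen to differ in several of them, so the muscle contrast in stromal barcodes is given below as a description.

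The study compared the extraocular muscles (EOM), which move the eye, with the quadriceps femoris (QFM), a thigh muscle, in the cynomolgus macaque, Macaca fascicularis. The groups used here are nuclei of EOM, nuclei of QFM and whole cells of EOM, with 1 library each. The labels give no treatment, age or number of animals. With 1 library a group there was no replicate check and no test between muscles, and every interval below covers counting error only, at 95%. The QFM sample is titled as nuclei while its file names say single cells; the median mitochondrial share of its kept barcodes was 0.190%, beside 0.459% in EOM nuclei and 11.9% in EOM cells.

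As background, these proteins fall into several roles. PRG4, or lubricin, is the boundary lubricant of joints and gliding fascia, and ASPN (asporin) is a small leucine-rich proteoglycan that binds collagen. CCN3 and TNC (tenascin-C) are matricellular proteins, which signal to cells more than they bear load, and TNC is best known from tendon, wounds and the walls of stretched vessels. ELN (elastin) and FBLN1 (fibulin-1) belong to the elastic fibre system. CCBE1 helps the protease ADAMTS3 to activate VEGFC, the growth factor of lymphatic vessels, and MGP (matrix Gla protein) keeps soft tissue and artery walls from calcifying.

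Barcodes, which stand for single nuclei or cells, were assigned to classes by the summed unique molecule counts (UMIs) of marker genes. A barcode was positive for a class at 3 UMIs or more, and barcodes positive for several classes were left out. The stromal class (PDGFRA and DCN) held 1843 of 13975 kept EOM nuclei, 982 of 10525 QFM nuclei and 1490 of 7111 EOM cells. The endothelial class held 2266, 1110 and 1611 barcodes, and the mural class (pericyte and smooth muscle markers) 292, 216 and 1869. The marker-negative barcodes, with no UMI of any class marker, numbered 2662, 4496 and 829 and give a level to set beside that of each class. They are themselves nuclei and cells, rich in myofibre RNA in the nuclei libraries, so their level is not a floor. In EOM nuclei 491 barcodes had exactly 3 stromal UMIs and 1000 had 2, so many lay near the threshold; in QFM these numbers were 86 and 209. The libraries held 61618999, 72590186 and 12248405 UMIs, with medians of 2811, 4508 and 1142 per kept barcode. The 2 nuclei libraries shared 33 barcode sequences and neither shared any with the cell library.

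The stromal class was checked against 8 fibroblast markers that its rule did not use. All 8 were at least 2-fold above the marker-negative level in the stromal barcodes of both nuclei libraries, and 7 of 8 were in EOM cells. The endothelial and mural classes were chosen by all of their listed markers, which marker-negative barcodes lack by definition. No such check with unused markers could therefore be made of them. The EOM endothelial class reached well beyond the endothelial-like clusters, which held 1272 nuclei against 2266 in the class. In QFM those numbers were 959 and 1110. Of 1668 nuclei in an unnamed EOM cluster led by the mitochondrial genes ATP8 and ND4, 28.9% were in the endothelial class. RNA of other cells was present too: 8 myofibre markers, none of them at 0, summed to 4751 CPM (a gene's UMIs scaled to the same total in every class) in EOM stromal nuclei and 12170 CPM in QFM stromal nuclei. In marker-negative nuclei the same markers summed to 19870 CPM in EOM and 45580 CPM in QFM. The 6 perineurial markers, 2 of them at 0 in either muscle, summed to 931 CPM in EOM and 210.5 in QFM stromal nuclei, against 105 and 156 in marker-negative nuclei. The 6 measured tenocyte markers, again with 2 at 0, summed to 110.2 CPM in EOM and 393 in QFM stromal nuclei, against 33.1 and 12.1 in marker-negative nuclei. Only 3 tenocyte markers in EOM and 2 in QFM were at least 2-fold above the marker-negative level. Of the perineurial markers, 3 in each muscle were. The 6 measured Schwann markers, with 0 of them at 0, summed to 803 CPM in EOM and 940 in QFM stromal nuclei, against 150.5 and 35.6 in marker-negative nuclei. Of these, 2 in EOM and 4 in QFM were at least 2-fold above the marker-negative level. SCN7A, on that list, was also a leading gene of a fibroblast-like QFM cluster. The part of these other cells in the muscle differences below was not tested.

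In stromal nuclei, 5 of the 8 genes had an EOM level at most 0.5 times that of QFM, and 1 had at least 2 times. Over all 10876 genes measured in that comparison (at least 20 counts over both sums), 12.7% were lower and 11.9% higher by that fold. The 5 lower genes were PRG4, ASPN, CCN3, CCBE1 and MGP, and TNC was the higher one. ELN and FBLN1 lay within 2-fold. The median log2 ratio was -3.54 over the 8 genes and 0.00 over all genes measured. Since the genes were chosen with this contrast in view, their count says nothing about matrix genes at large. A level is a CPM over the summed UMIs of a class; levels of different genes are not compared, because counts per transcript length were not available.

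**Figure D1:**
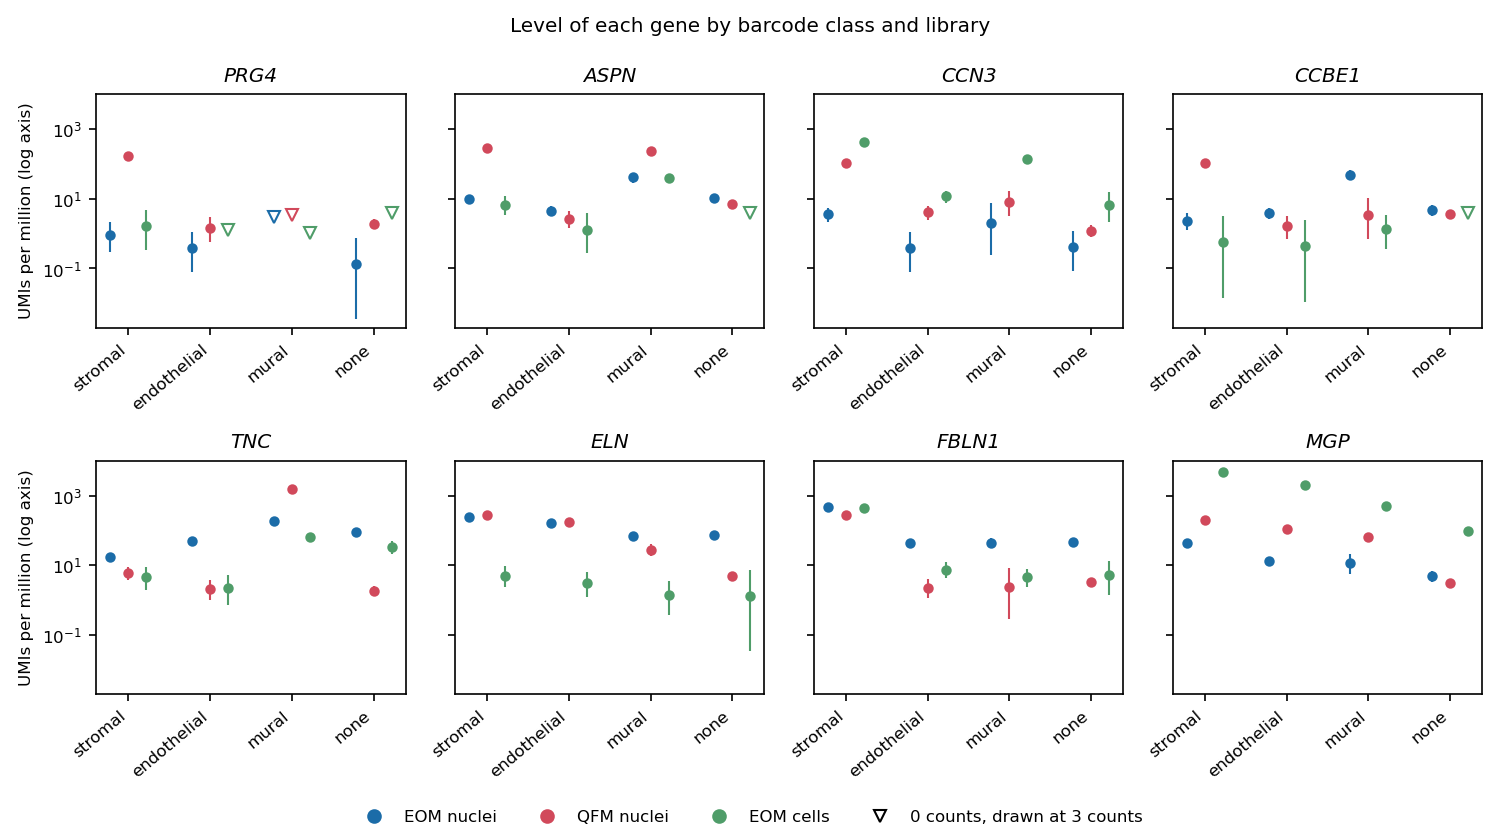
Level of each gene as CPM (log axis) in stromal, endothelial, mural and marker-negative ("none") barcodes of the 3 libraries; points are class sums, bars 95% Poisson intervals, and open triangles mark sums of 0 drawn at 3 counts. PRG4, ASPN, CCN3 and CCBE1 stood near or above 100 CPM in QFM stromal nuclei (104 to 288 CPM) and below 10 CPM in EOM stromal nuclei (0.903 to 9.57 CPM).

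PRG4, the lubricant, was counted 5 times in EOM stromal nuclei and 682 times in QFM stromal nuclei. Its level was 0.903 CPM (0.293 to 2.11) in EOM and 169 CPM (157 to 182) in QFM. EOM stromal cells gave 3 counts, so the whole-cell library also showed almost none. The log2 ratio of EOM over QFM nuclei was -7.55 (-9.18 to -6.32), a 187-fold lower level. With every barcode thinned to 500 UMIs, to set depth aside, 6.11% of QFM stromal nuclei (4.69 to 7.79%) and 0.109% of EOM stromal nuclei (0.0131 to 0.391%) held a PRG4 UMI. Marker-negative QFM nuclei did so in 0.156%. Without thinning the stromal shares were 25.6% in QFM and 0.217% in EOM. Within QFM most of the PRG4 lay in the stromal class: 75.4% of its QFM UMIs lay in stromal barcodes, which were 9.33% of kept barcodes, 0.773% in endothelial and 0 in mural barcodes.

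ASPN stood at 9.57 CPM (7.17 to 12.5) in EOM stromal nuclei, 288 CPM (272 to 305) in QFM stromal nuclei and 6.70 CPM (3.46 to 11.7) in EOM stromal cells. The EOM level was not above that of marker-negative EOM nuclei, 10.4 CPM (8.24 to 13.1), so ASPN did not mark stromal nuclei there. The log2 ratio of EOM over QFM was -4.91 (-5.34 to -4.51). Mural nuclei differed in the same direction, with 41.1 CPM for EOM against 238 for QFM (log2 ratio -2.53, -3.06 to -2.04). In QFM the mural level was close to the stromal one, at a log2 ratio of stromal over mural of 0.27, so ASPN was found in both kinds of cell there. Endothelial barcodes held little, 4.56 and 2.66 CPM in nuclei of EOM and QFM and 1.31 CPM in whole cells. In EOM the mural barcodes exceeded the stromal ones, in nuclei (41.1 against 9.57 CPM) and in cells (40.1 against 6.70 CPM), and 86.0% of the ASPN UMIs of EOM cells lay in mural barcodes. The highest ASPN level among EOM nuclei clusters, 134 CPM from 15 counts, was in a small tenocyte-like cluster of 33 nuclei, a name that rests on tendon markers such as MKX and THBS4.

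CCN3 differed by preparation as well as by muscle. It stood at 3.61 CPM (2.21 to 5.58) in EOM stromal nuclei, 107 CPM (97.1 to 118) in QFM stromal nuclei and 420.1 CPM (391 to 451) in EOM stromal cells. The EOM nuclei were thus 29.6-fold below QFM nuclei (log2 ratio -4.89, -5.61 to -4.24), while EOM cells were 116-fold above EOM nuclei (log2 ratio 6.86, 6.22 to 7.58). QFM whole cells were not analysed here, so the muscle difference in CCN3 was seen in nuclei alone. EOM mural cells also held CCN3, at 142 CPM (129 to 156), where mural nuclei of EOM gave 2 counts and those of QFM 7. Endothelial barcodes were low throughout, at 0.391 CPM in EOM nuclei, 4.10 CPM in QFM nuclei and 11.8 CPM in EOM cells.

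TNC, the other matricellular member, followed another pattern. In stromal nuclei it was low in both muscles, 17.5 CPM (14.2 to 21.4) in EOM and 5.96 CPM (3.82 to 8.87) in QFM. The log2 ratio of 1.56 (0.90 to 2.27) sits on an EOM level below that of marker-negative EOM nuclei, 91.0 CPM. Marker-negative nuclei were rich in myofibre RNA, and myofibre-like clusters of EOM held TNC themselves, as given below. Their level therefore cannot tell whether stromal nuclei expressed TNC. The stromal log2 ratio of TNC ranged from 0.22 to 3.93 over the alternative class rules. Its strongest signal was in mural nuclei of QFM, 1577 CPM (1494 to 1664), where EOM mural nuclei had 187 CPM (161 to 216) and EOM mural cells 65.8 CPM (56.9 to 75.8). The mural log2 ratio of EOM over QFM was -3.08 (-3.31 to -2.85), an 8.43-fold lower level. In QFM 79.2% of all TNC UMIs lay in mural barcodes, which were 2.05% of the barcodes kept. In EOM nuclei that share was 5.37%, from 2.09% of kept barcodes, and 80.9% lay outside the 3 classes, as did 68.5% of kept barcodes.

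Muscle fibre and nerve sheath clusters held TNC in EOM. Among myofibre-like clusters, those led by CCDC60, SLC28A3 and MYBPC2 and by CDH20 and HTR1E, held 194 and 179 CPM. Other EOM myofibre-like clusters held 18.7 to 68.0 CPM, and the unnamed cluster led by NRXN3 and the myosin MYH15 held 8.0 CPM. The myofibre-like clusters of QFM held 1.64 to 23.2 CPM. A Schwann-like EOM cluster of 85 nuclei held 307 CPM from 68 counts, another of 64 nuclei 60.5 CPM from 9 counts, and the tenocyte-like cluster of 33 nuclei 224 CPM from 25 counts. The Schwann-like clusters of EOM cells held 188 and 78.8 CPM. The Schwann-like QFM clusters, of 11 and 20 nuclei, had 0 counts of TNC among 47618 and 82029 UMIs, too few to draw a contrast.

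ELN was nearly level between the muscles in stromal nuclei: 236 CPM (223 to 249) in EOM and 271 CPM (255 to 287) in QFM, a log2 ratio of -0.20 (-0.32 to -0.08). That ratio changed sign under other class rules, from -1.19 with PDGFRA alone to 0.62 with barcodes positive at 1 UMI. Endothelial nuclei were as close, at 157 CPM (149 to 167) and 169.7 CPM (158 to 182), with a log2 ratio of -0.11 (-0.24 to 0.02), which ranged from -0.14 to 1.0 (at 1 UMI) over the alternatives. Mural nuclei held 66.8 CPM in EOM, beside 72.2 CPM in marker-negative EOM nuclei, and 28.0 CPM in QFM, beside 4.98 CPM in marker-negative QFM nuclei. The mural log2 ratio of 1.26 (0.56 to 2.00) therefore compares an EOM level near the marker-negative one with a QFM level above it. In EOM stromal cells ELN was nearly absent, with 9 counts or 5.03 CPM (2.30 to 9.54), and the log2 ratio of cells over nuclei was -5.55 (-6.68 to -4.62).

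FBLN1 alone of the members was at least 2-fold higher in stromal than in endothelial, mural and marker-negative barcodes of all 3 libraries. CCN3 and MGP also passed the marker-negative level 2-fold in all 3 libraries, but not both vessel classes in each. In stromal barcodes FBLN1 stood at 457 CPM (439 to 475) in EOM nuclei, 272 CPM (256 to 288) in QFM nuclei and 442 CPM (412 to 474) in EOM cells. The stromal log2 ratio of EOM over QFM nuclei was 0.75 (0.65 to 0.85), within 2-fold, and that of EOM cells over EOM nuclei was -0.05 (-0.16 to 0.07). The first ranged from -0.15 to 1.31 over the alternative class rules. In endothelial barcodes it was 43.3 CPM in EOM nuclei, 2.25 CPM in QFM nuclei and 7.45 CPM in EOM cells, and in mural barcodes 43.2, 2.33 and 4.46 CPM. Marker-negative EOM nuclei held 47.3 CPM, so the endothelial and mural levels of EOM were not above that of nuclei without class markers. Whether the log2 ratios of 4.27 and 4.21 against QFM in those classes come from vessel cells was not tested. Over the alternatives the endothelial ratio ranged from 3.06 to 4.62 and the mural ratio from 0.57 to 4.22. DCN, a stromal marker, was 115 CPM in EOM endothelial nuclei and 33.6 CPM in QFM endothelial nuclei, and its part in these ratios was not tested.

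CCBE1 stood at 2.35 CPM (1.25 to 4.02) in EOM stromal nuclei and 104 CPM (94.3 to 115) in QFM stromal nuclei, and gave 1 count in EOM stromal cells. The EOM level lay below that of marker-negative EOM nuclei, 4.75 CPM (3.31 to 6.60), so CCBE1 did not mark stromal nuclei there. The log2 ratio was -5.47 (-6.39 to -4.68), a 44.3-fold lower level. Mural nuclei went the other way, with 49.4 CPM (36.4 to 65.4) in EOM from 48 counts and 3.50 CPM in QFM from 3 counts, a ratio of 14.1 (log2 3.82, 2.18 to 6.15). Those 48 UMIs lay in 22 of the 292 mural nuclei, and the mural ratio became -0.24 when barcodes positive for several classes were kept. EOM mural cells gave 4 counts (1.37 CPM), so the whole-cell library did not show this level.

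MGP was lower in EOM than in QFM nuclei in each of the 3 classes. Its stromal level was 43.9 CPM (38.5 to 49.8) in EOM and 199.6 CPM (186 to 214) in QFM, a log2 ratio of -2.18 (-2.40 to -1.98). Its endothelial level was 13.02 CPM (10.6 to 15.8) and 112 CPM (103 to 122), a log2 ratio of -3.10 (-3.43 to -2.79). Its mural level was 11.3 CPM and 64.2 CPM, a log2 ratio of -2.50 (-3.59 to -1.55). Whole cells of EOM nonetheless held it in quantity: 4612 CPM (4513 to 4713) in stromal cells, 2010 CPM (1952 to 2069) in endothelial cells and 495 CPM (470.2 to 522) in mural cells, against 94.1 CPM in marker-negative cells. Thinned to 500 UMIs, 78.9% of EOM stromal cells (76.8 to 81.0%) held an MGP UMI, beside 3.98% of marker-negative cells.

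The genes were chosen with stromal levels of these data in view, so the counts of members in this paragraph are a description. Set against the other barcodes of its own library, the QFM stromal class held all 8 genes at least 2-fold above the marker-negative level. Of all genes measured there, 30.7% were higher and 13.5% lower. TNC in that class rested on 24 counts in 14 nuclei, with 10 of the counts in a single nucleus. In EOM nuclei 4 of 7 measured members were above the marker-negative level (CCN3, ELN, FBLN1 and MGP) and 2 below (TNC and CCBE1), beside 16.2% and 14.5% of all genes. In EOM cells 3 of 4 were above (CCN3, FBLN1 and MGP) and TNC below, beside 22.6% and 17.6%. Against endothelial barcodes, 6 of 8 were higher in QFM stromal nuclei and none lower (all genes 14.9% and 12.5%), with ELN and MGP within 2-fold. In EOM nuclei 4 of 7 were higher and TNC lower (11.1% and 13.2%), and in EOM cells 3 of 3 were higher (16.8% and 17.1%). Against mural barcodes, 6 of 8 were higher in QFM stromal nuclei and TNC lower (18.8% and 8.17%), 3 of 7 higher and 3 lower in EOM nuclei (13.6% and 8.59%), and 3 of 5 higher and 2 lower in EOM cells (28.8% and 10.5%). PRG4 was at least 48.4-fold higher in stromal than in mural nuclei of QFM, taking 3 counts for the mural sum of 0. Median-of-ratios scaling changed none of these counts of members, but over all genes it gave 22.1% higher and 20.8% lower for QFM stromal against marker-negative nuclei, and 21.6% and 15.6% for EOM stromal against mural cells.

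The marker-negative nuclei, which held more myofibre RNA than any of the 3 classes, differed between the muscles as well. Of the 8 genes TNC, ELN and FBLN1 were at least 2-fold higher in EOM there and PRG4 and CCN3 lower, where 27.5% and 8.03% of all genes measured were. TNC had 91.0 CPM (84.2 to 98.2) against 1.87, ELN 72.2 against 4.98 and FBLN1 47.3 against 3.25 CPM. Over all kept nuclei together, TNC, ELN and FBLN1 were higher in EOM and the other 5 lower, where 20.5% and 8.08% of all genes were. Median-of-ratios scaling set the zero of the marker-negative log2 ratios at 0.28, with 22.0% of all genes higher and 12.1% lower, and no member changed its call. It set that of all kept nuclei at 0.19 (16.9% and 10.5%), where TNC came within 2-fold, from 1.11 to 0.92. ELN had 113 CPM in all EOM nuclei and 42.6 CPM in all QFM nuclei.

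**Figure D2:**
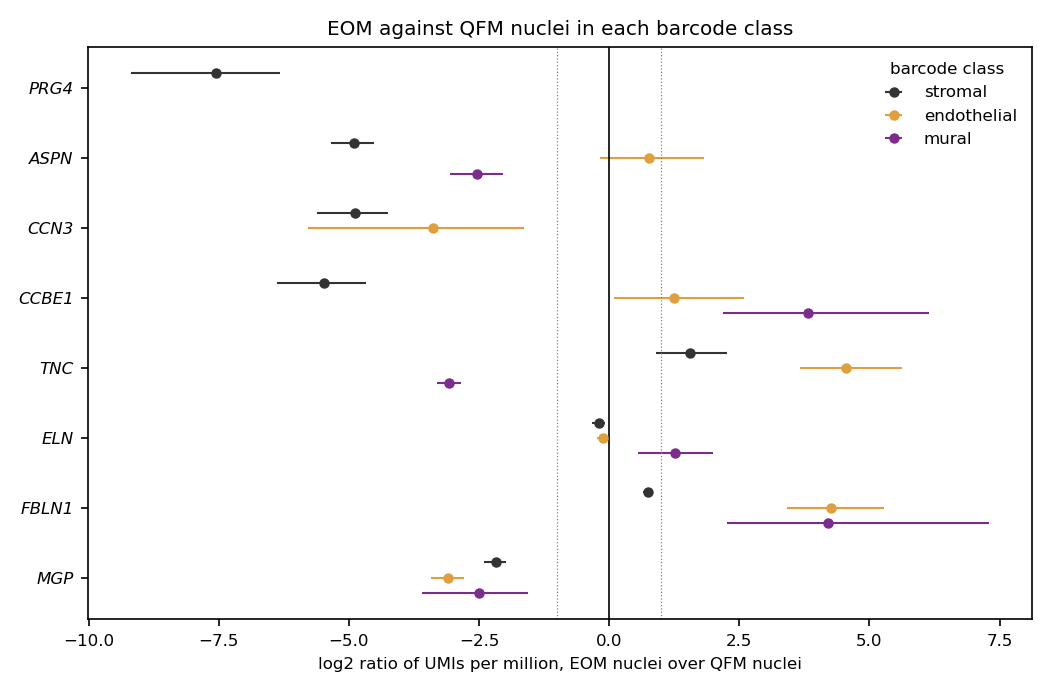
Log2 ratio of EOM over QFM nuclei for each gene in stromal, endothelial and mural barcodes, with 95% intervals from counting error; dotted lines mark 2-fold, and genes with under 20 counts over both sums are not drawn. MGP was lower in EOM in all 3 classes, and CCBE1 and TNC had opposite signs in stromal and mural barcodes. The EOM levels of FBLN1 and TNC in endothelial barcodes were at or below those of marker-negative EOM nuclei.

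Across the vessel classes, 3 of 7 genes measured in endothelial nuclei were at least 2-fold higher in EOM (TNC, FBLN1 and CCBE1) and 2 were lower (CCN3 and MGP), where 15.6% and 9.64% of all genes measured were. Each of the 3 higher genes had an EOM endothelial level at or below that of marker-negative EOM nuclei. In mural nuclei 3 of 6 were higher (CCBE1, ELN and FBLN1) and 3 lower (ASPN, TNC and MGP), where 13% and 10.6% of all genes measured were. Of the higher ones, CCBE1 alone was above the marker-negative level in EOM. The counts behind several of these ratios were small: CCN3 rested on 3 and 20 endothelial counts, and FBLN1 on 42 and 2 mural counts. Myofibre markers summed to 11470 and 11890 CPM in EOM and QFM endothelial nuclei and to 9278 and 14350 CPM in mural nuclei, and their part in these ratios was not tested.

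QFM nuclei gave 2 fibroblast-like clusters, and the members divided between them. The larger, of 682 nuclei, was led by NEGR1, SCN7A and EPHA3, and the smaller, of 391 nuclei, by VCAN, CLEC3B and MFAP5, with PI16 among its leading genes. PRG4 stood at 310.4 CPM in the smaller and 123 CPM in the larger cluster, and CCN3 at 252 and 46.2 CPM. CCBE1 was the reverse, with 8.97 CPM in the smaller and 202 CPM in the larger cluster, and FBLN1 leaned the same way with 143 and 398 CPM. ASPN (319 and 318 CPM), ELN (290.1 and 303 CPM) and MGP (221 and 190.0 CPM) were alike in both. These clusters were made from the same counts, so the values are a description.

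Genes seen together in single nuclei were also counted. These shares come from the same counts as the clusters, so they are a description and no separate support for the division. With QFM stromal nuclei thinned to 1000 UMIs, FBLN1 was seen in 34 of 72 nuclei with a CCBE1 UMI (47.2%, Clopper-Pearson 35.3 to 59.4%) and in 21.5% of those without (18.8 to 24.3%); without thinning the shares were 78.0% and 43.0%. It was seen in 12.9% of nuclei with a CCN3 UMI (6.05 to 23.0%) and in 24.2% of those without (21.5 to 27.2%), where the intervals overlap (40.8% and 48.8% without thinning). ASPN was seen in 30.5% of nuclei with PRG4 (22.4 to 39.7%) and 20.8% without (18.1 to 23.7%), again with overlapping intervals (63.3% and 40.4% without thinning). PRG4 and CCN3 were highest in the same cluster, yet at this depth CCN3 was seen in 6.78% of nuclei with PRG4 (2.97 to 12.9%) and 7.36% without (5.68 to 9.33%). Without thinning those shares were 27.1% and 15.2%; the part of depth in that gap was not tested.

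EOM nuclei gave 1 fibroblast-like cluster, of 2205 nuclei, led by HTR2C, AOX1 and NOX4. It held 557 CPM of FBLN1, 291 CPM of ELN and 49.4 CPM of MGP, and 0.846 CPM of PRG4 from 5 counts. EOM whole cells gave 3 fibroblast-like clusters that differed in CCN3 and FBLN1. The cluster led by CCL26, TRH and MFAP5 had 812 CPM of CCN3 and 278 CPM of FBLN1, the one led by THSD4, MFAP4 and CNTFR had 149 and 729 CPM, and the one led by ABCA9, ABCA10 and COL15A1 had 267 and 246 CPM. FBLN1 was itself among the 10 leading genes of the second of these. MGP was high in all 3, from 3458 to 5759 CPM. A tenocyte-like cluster of 65 cells had 2626 CPM of MGP, 371 CPM of FBLN1 and 61.9 CPM of ASPN from 5 counts.

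**Figure D3:**
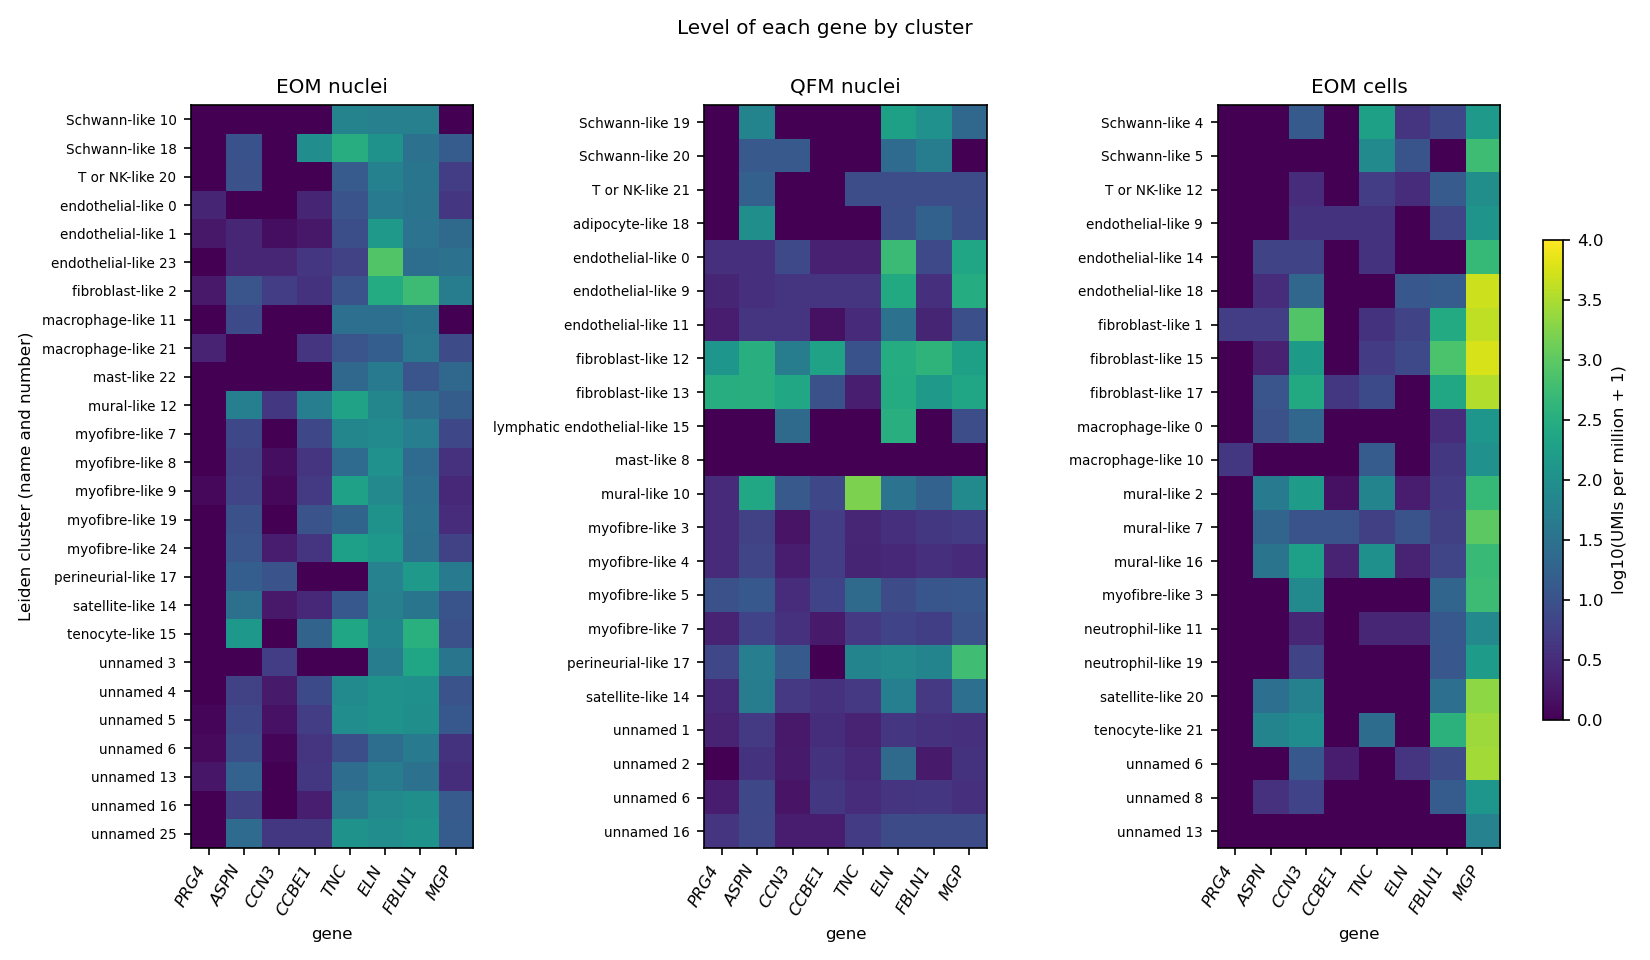
Level of each gene, as log10(CPM + 1), in every cluster of the 3 libraries, with clusters in rows by name and number and genes in columns. In QFM nuclei PRG4 and CCN3 were brightest in fibroblast-like cluster 13 and CCBE1 in fibroblast-like cluster 12, TNC in mural-like cluster 10, and ELN in endothelial-like cluster 0.

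Endothelial ELN was highest in a cluster led in part by BMX, a gene of arterial endothelium, in both muscles. In EOM nuclei a cluster of 201 nuclei led by MECOM, BMX and VEGFC held 814 CPM (491 counts). In QFM nuclei a cluster of 192 nuclei, with BMX, ALPL and IGFBP3 among its leading genes, held 534 CPM (410 counts). The clusters with GRIN2A, IFI27 and RGCC among their leading genes held 45.0 CPM in EOM and 30.9 CPM in QFM, and those with ACKR1, a receptor of venules, held 139 and 273 CPM. In QFM a lymphatic endothelial-like cluster of 41 nuclei held 318 CPM of ELN from 41 counts and 3 counts of CCN3, and no cluster of EOM nuclei carried that name.

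MGP was lowest in the clusters without BMX or ACKR1. In QFM nuclei it stood at 236 CPM in the BMX cluster, 296 CPM in the ACKR1 cluster and 8.39 CPM in the GRIN2A cluster. The corresponding EOM nuclei clusters had 31.5, 23.2 and 3.22 CPM. EOM cells had 4908 CPM in a cluster with GJA5 and BMX among its leading genes and 2795 CPM in an unnamed cluster led by ACKR1 that also has the lymphatic genes MMRN1 and PROX1 among its leading genes, against 116 and 127 CPM in the clusters led by APLNR and by SLC2A1 and 476 CPM in one led by SSUH2. The first 2 of these lower values were near the 94.1 CPM of marker-negative cells. The gap between these endothelial clusters was thus present in all 3 libraries, whose levels differed widely; the clusters were made from the same counts. The highest MGP level of any nuclei cluster, 589 CPM from 95 counts, was in a perineurial-like QFM cluster of 40 nuclei; the matching EOM cluster of 72 nuclei held 43.6 CPM.

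Mural-like clusters repeated the class values, but they hold much the same barcodes and so give no separate support. Mural-class barcodes made up 72.2% of the EOM nuclei cluster and 83.55% of the QFM cluster. TNC stood at 1633 CPM in the QFM cluster, where it was among the leading genes, and at 202 CPM in the EOM nuclei cluster. In EOM cells the mural-like cluster led by MYH11 and the one led by CH25H, RGS16 and IL6, which has no mural marker among its 10 leading genes, held 62.9 and 100.3 CPM of TNC and 155 and 177 CPM of CCN3. The cluster with the pericyte genes HIGD1B, RGS5 and KCNJ8 held 4.74 CPM of TNC and 9.47 CPM of CCN3, from 1 and 2 counts. CCBE1 in EOM nuclei was at 51.2 CPM in the mural-like cluster and 90.4 CPM (20 counts) in the Schwann-like cluster of 85 nuclei.

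Whole cells and nuclei of EOM gave different pictures of the same genes. Of 6 members measured in stromal barcodes, CCN3 and MGP were at least 2-fold higher in cells and TNC and ELN lower, where 24.1% and 47.2% of 10182 genes were; ASPN and FBLN1 lay within 2-fold. PRG4 and CCBE1 had under 20 counts over both sums. In endothelial barcodes 2 of 7 were higher in cells (CCN3 and MGP) and 5 lower, beside 24.0% and 47.5% of all genes, and in mural barcodes the same 2 of 7 were higher and 4 lower, beside 24.7% and 50.1%. The mural counts depended on the scaling: median-of-ratios scaling set the zero of the mural log2 ratios at -1.42 and gave 3 members higher and 3 lower, beside 41.9% and 30.7% of all genes. ASPN was then higher (1.38, from -0.04) and TNC within 2-fold (-0.09, from -1.51). That scaling set the zero at -0.26 for stromal and -0.20 for endothelial ratios and left their counts of members as they were. Stromal MGP differed by a log2 ratio of 6.72 (6.53 to 6.91) and TNC by -1.97 (-3.22 to -0.94). The nuclei and cell tables name their genes by different annotations, so differences between the preparations and between gene models cannot be told apart here.

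**Figure D4:**
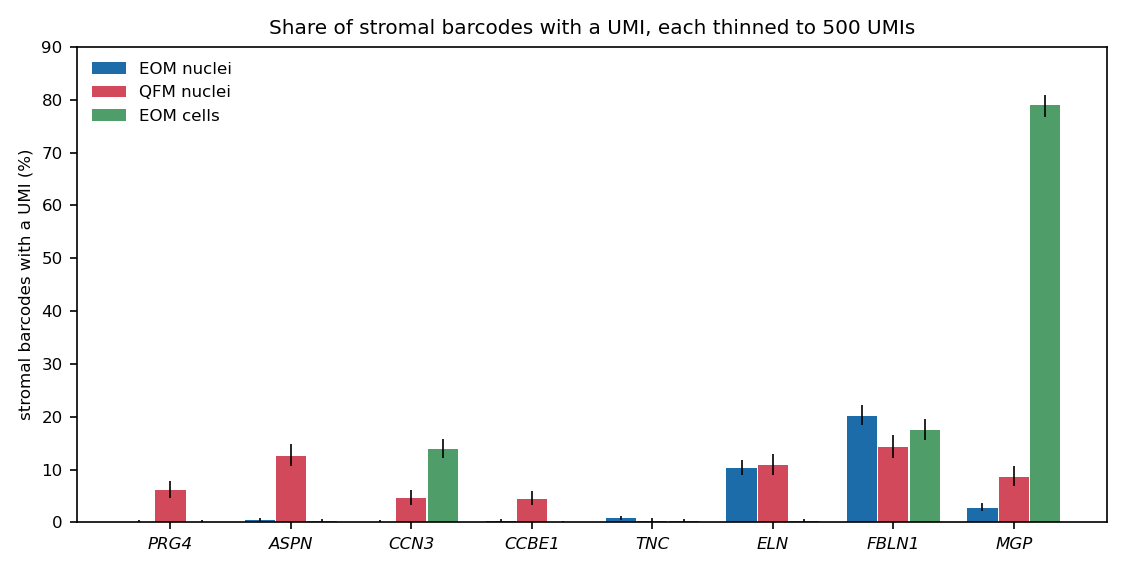
Percent of stromal barcodes with at least 1 UMI of each gene after thinning every barcode to 500 UMIs, in EOM nuclei (1843), QFM nuclei (982) and EOM cells (1490); bars start at 0 and error bars are 95% Clopper-Pearson intervals. MGP reached 78.9% in EOM cells against 2.77% in EOM nuclei and 8.66% in QFM nuclei, while FBLN1 lay between 14.3 and 20.2% in all 3.

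Other genes of the same systems were counted in stromal nuclei from 7 lists, to be read beside the 12.7% of all genes measured that were lower in EOM and the 11.9% that were higher. Of 20 genes of the elastic fibre and microfibril system, 9 passed the 2-fold line downward in EOM, 2 upward and 9 neither, with a median log2 ratio of -0.73. FBN1, the main microfibril protein, had 1368 CPM in EOM against 3579 in QFM (log2 ratio -1.39, -1.43 to -1.35). MFAP5, which binds microfibrils, had 162 and 693 CPM (-2.09), FBLN2 337 and 628 CPM (-0.90), and LTBP1, which tethers TGF-beta, 340.5 and 402 CPM (-0.24). ELN itself, near level, thus stood beside lower values of several microfibril genes. The 2 higher genes, FBN2 (36.3 and 13.9 CPM) and FBN3 (6.32 and 0.745 CPM), were named after their values were seen. The same holds below for BGN, CCN1, CCN5, THBS2, TNN, ALPL, SOX9, ABCC6, ITGA5, ITGB5, ITGB6, SDC4 and NOTCH1, which the rule for naming genes did not choose.

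Of 8 small leucine-rich proteoglycans, the family of ASPN, 1 was lower (BGN, 3.43 and 10.9 CPM), none higher and 7 within 2-fold, a share no larger than that of all genes. LUM had a log2 ratio of -0.70, PODN -0.66, ECM2 -0.35 and DCN, which also chose the barcodes, -0.57. ASPN at -4.91 lay outside the range of these 8 genes, -1.67 to 0.22.

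Of 11 other matricellular genes, 5 were lower in EOM, 1 higher and 5 within, with a median of -0.89. SPARC, a collagen-binding protein, had 174 and 383 CPM (-1.14), SMOC2 201 and 405 CPM (-1.01), THBS3 61.2 and 87.4 CPM (-0.51) and SPARCL1 519 and 268 CPM (0.96). The other 3 lower genes were CCN5 (-4.19), THBS2 (-3.41) and CCN1 (-3.14), of which CCN1 and CCN5 belong to the CCN family with CCN3. The higher one was TNN (1.81), a relative of TNC, with 29 and 6 counts.

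CCBE1 acts beside a set of lymphatic growth genes. Of 8 measured, 3 were lower in EOM, 1 higher and 4 within, with a median of -0.59. The 3 lower were VEGFC (22.6 and 85.4 CPM, -1.92), its relative VEGFD (8.67 and 86.4 CPM, -3.32) and ADAMTS3 (45.2 and 94.8 CPM, -1.07), the ligands and the protease of the pathway in which CCBE1 acts. NRP2, a co-receptor, was higher (135 and 66.0 CPM, 1.03). In endothelial nuclei VEGFC was within 2-fold, at 360.0 against 488 CPM (-0.44, -0.52 to -0.36).

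Of 8 hyaluronan and lubrication genes, 4 were lower in EOM, none higher and 4 within, with a median of -1.09. VCAN, a hyaluronan-binding proteoglycan, had 114 and 753 CPM (-2.72), the hyaluronan receptor CD44 48.4 and 306 CPM (-2.66), TNFAIP6, which links proteins to hyaluronan, 21.9 and 139 CPM (-2.67), and CLU 38.3 and 94.6 CPM (-1.30). Of 10 mineralisation genes 3 were higher (ANKH, ALPL and SOX9), 1 lower (ABCC6, with 8 and 13 counts, again no more than the share of all genes) and 6 within, with a median of 0.11. ANKH, which exports an inhibitor of crystal growth, had 281 and 112 CPM (1.33) and ENPP1, which makes that inhibitor, 163 and 153 CPM (0.09). RUNX2 stood at a log2 ratio of 0.54 and BMPR2 at 0.13. Of 11 receptors of the members 4 were lower (ITGA5, ITGB5, SDC4 and ANXA2), 2 higher (ITGB6 and NOTCH1) and 5 within, with a median of -0.78. Among the most abundant, EGFR had a log2 ratio of -0.78, ITGB1 -0.94, ITGA9 -0.22 and ANXA2 -1.64.

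**Figure D5:**
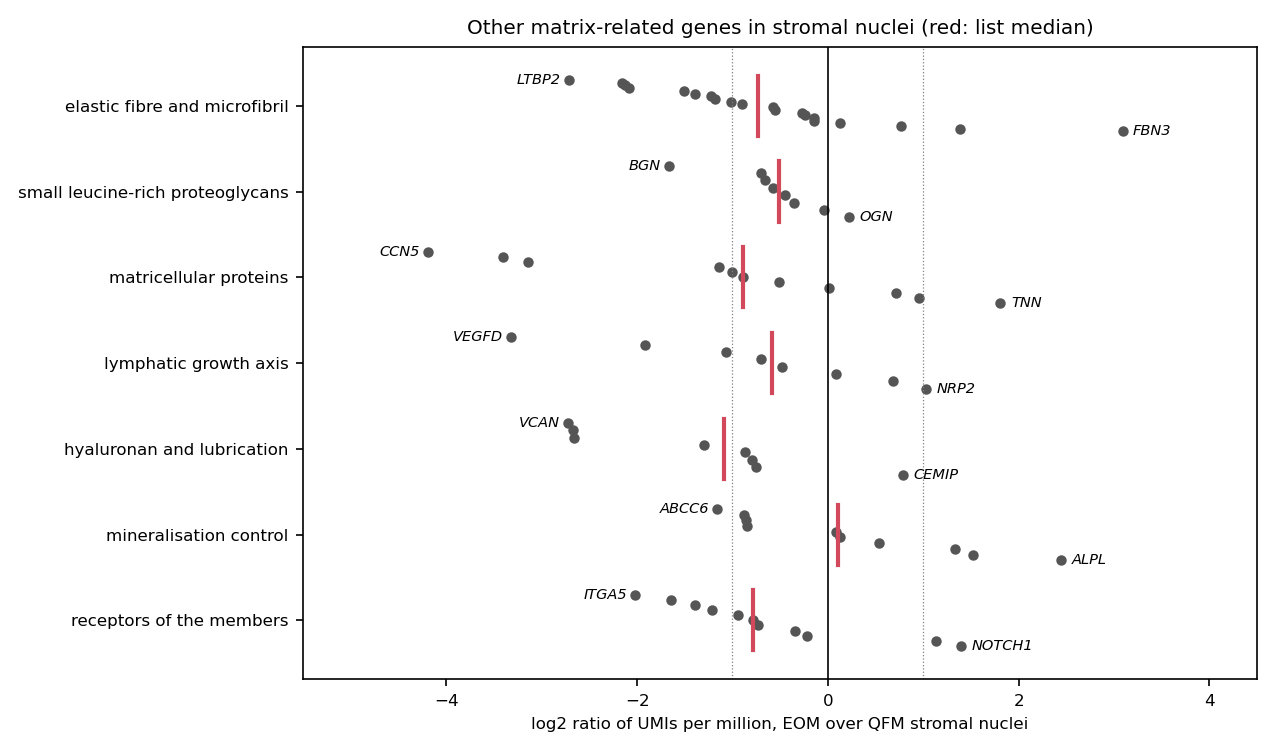
Log2 ratio of EOM over QFM stromal nuclei for each measured gene of 7 lists, with the lowest and highest gene of each list named, the list median as a red line and dotted lines at 2-fold. The hyaluronan list has the lowest median, -1.09, and the mineralisation list a median of 0.11.

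Over 48 clusters of both nuclei libraries, the genes whose levels were most like each member's were found by Pearson correlation of log2(CPM + 5) among 11219 genes. The clusters share 2 libraries, their depths and their ambient RNA, so the values describe these data. PRG4 was most like TBX5 (0.92), ANGPTL5 (0.90) and FAM180B (0.86), and CCN3 like ACKR4 (0.86), PRG4 (0.82) and CYP8B1 (0.80). ASPN was most like SHOX2 (0.79), CCDC80 (0.78) and LRRN4CL (0.74). ELN was most like FBXL7 (0.84), EVC2 (0.81) and NPDC1 (0.80), and FBLN1 like NOX4 (0.91), SPHKAP (0.87) and the class marker DCN (0.87). MGP was most like GLIS2 (0.74), PROCR (0.74) and GSN (0.73). The closest genes to TNC were CACNA1A (0.71), DGKB (0.68) and EGFLAM (0.66), and those to CCBE1 were GEM (0.65), GDF10 (0.63) and CDH17 (0.60). Among the members themselves the coefficient was largest for CCN3 with PRG4 (0.82), followed by CCN3 with MGP (0.62), and was -0.15 for CCN3 with TNC.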

How the data were processed

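The 3 libraries (nuclei of both muscles and whole cells of EOM) were grouped by sample title. The files deposited by the authors hold unnormalised UMI counts. Cell Ranger 7.2.0 wrote the nuclei matrices, per the file headers; Seurat 5.2.1 is also listed in the submitters' processing notes. Genome build, annotation and treatment of intronic reads: not given in the sources used here. Features without a gene symbol entered only the totals; 723 features of the cell matrix were named through NCBI identifiers and 7 through an older symbol. The mural marker NOTCH3 has no symbol in the nuclei tables.

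Barcodes were kept with at least 500 UMIs, 200 genes and a mitochondrial share of at most 10% (nuclei) or 20% (cells). Scrublet, in scanpy 1.11.5, at an expected rate of 6%, called 2498 (15.2%), 1866 (15.1%) and 188 (2.58%) doublets, which were removed. Each library was clustered by itself (2000 variable genes, 30 principal components, 15 neighbours, Leiden resolution 1, seed 1) into 26, 22 and 22 clusters, named from marker lists where the mean z-score reached 0.5 with 3 markers detected in 10% of barcodes. Differences from other namings may come from these rebuilt names.

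UMI counts were summed per class and divided by the class total to give CPM. Ratios have conditional exact binomial intervals, sums exact Poisson and shares Clopper-Pearson intervals, at 95%; a sum of 0 allows up to 3 counts. A gene was called at 2-fold with 20 counts over both sums. In a simulation of the stromal comparison over 14236 genes with 200 changed 4-fold, 100% were recovered, 1.40% of the unchanged were called and 94.0% of intervals held the truth. It drew Poisson counts around a shared profile, the model that the intervals assume, and changed only well-counted genes. It held no variation between libraries, animals or class make-up, so it checks the arithmetic and gives no false-call rate for these data. The text names all 8 members, up to 4 genes of each list with the highest mean level in the stromal sums, and the 3 genes most like each member. The members and lists were chosen with earlier results of these data known. Alternatives changed the marker threshold, class rule, doublet and depth filters, scaling, fold and count minimum. Software: matplotlib 3.10.9, igraph 0.11.9, anndata 0.12.19, scikit-learn 1.9.0, pandas 2.3.3, scipy 1.17.1, numpy 2.4.6, Python 3.11.15.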

Additional observations from a re-analysis of the deposited data

Results flagged for a closer look

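For 3 genes the ratio of EOM over QFM nuclei had opposite signs in different barcode classes, with counting intervals clear of 0 on both sides; with 1 library a muscle the difference between classes was not tested. CCBE1 had a log2 ratio of -5.47 in stromal, 1.25 in endothelial and 3.82 in mural nuclei. Its stromal and endothelial levels in EOM lay at or below the marker-negative level, and its mural level rested on 48 counts in EOM and 3 in QFM. TNC had log2 ratios of 1.56 in stromal, 4.55 in endothelial and -3.08 in mural nuclei. In the first 2 of these classes its EOM level, 17.5 and 48.2 CPM, was below the 91.0 CPM of marker-negative EOM nuclei, and in mural nuclei it was above. The endothelial ratio of TNC ranged from 1.76 to 5.27 over the alternatives. The endothelial-like EOM clusters held 4.97 to 9.65 CPM of TNC, against the 48.2 CPM of the endothelial class. Myofibre-like EOM clusters held TNC themselves, so the marker-negative level is not a floor for this gene. ELN had a log2 ratio of -0.20 in stromal and 1.26 in mural nuclei, the latter with 65 counts in EOM and 24 in QFM.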

How the results depend on the processing

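No paired analysis was possible because each group has 1 library, and for the same reason no replicate could be left out. Of 168 member ratios of EOM over QFM nuclei recomputed under the alternatives, 123 kept within their counting interval, 42 moved and 3 reversed. In stromal nuclei PRG4 (-8.33 to -6.18), ASPN (-5.93 to -3.91), CCN3 (-5.54 to -3.78), CCBE1 (-5.57 to -3.50) and MGP (-3.26 to -1.59) stayed at least 2-fold lower under all 8 alternatives. The others did not hold: TNC ranged from 0.22 (barcodes of several classes kept) to 3.93 (positive at 1 UMI), ELN from -1.19 (PDGFRA alone, 66 and 88 nuclei) to 0.62 (1 UMI), and FBLN1 from -0.15 (PDGFRA alone) to 1.31 (1 UMI). ELN in endothelial nuclei ranged from -0.14 to 1.0 (1 UMI). CCBE1 reversed in endothelial nuclei, to -0.02 with barcodes of several classes kept and -0.14 with clusters as classes, and in mural nuclei to -0.24 with barcodes of several classes kept. ELN in cells over nuclei became 1.31 with PDGFRA alone, which left 6 EOM cells, and TNC in stromal over endothelial EOM nuclei became 0.31 with clusters. The cause was not tested in any of these beyond the number of barcodes left.

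Counts of genes at least 2-fold apart also moved. The number of members higher in EOM stromal nuclei was 2 at 1 UMI and at a fold of 1.5, and 0 at 5 UMIs, with several classes kept, with clusters and with PDGFRA alone. The share of all genes higher in that comparison was 16.4% at 1 UMI, 19.6% at a fold of 1.5, 10.5% at 5 UMIs, 14.3% with several classes kept, 11.7% with clusters, 12.9% with doublets kept and 10.1% with PDGFRA alone; the share lower was 9.64% at 1 UMI, 13.8% at 5 UMIs and 13.9% with several classes kept. The number lower in endothelial nuclei was 4 with several classes kept (12.5% of all genes) and 1 with clusters (5.22%). At 1 UMI, 3 elastic fibre, 2 proteoglycan and 2 receptor genes were lower, and 2 matricellular and 2 lymphatic genes higher. At 5 UMIs, 1 elastic fibre, 0 lymphatic, 1 hyaluronan and 1 receptor gene were higher. With several classes kept, 1 proteoglycan and 2 lymphatic genes were higher, and 5 proteoglycan, 8 matricellular, 1 lymphatic and 3 mineralisation genes lower. With clusters, 2 matricellular, 1 hyaluronan and 1 receptor gene were higher. With doublets kept, 2 matricellular and 1 hyaluronan gene were higher, and with PDGFRA alone 0 elastic fibre, 1 mineralisation and 1 receptor gene. Depth limits the small sums: a level of 3 counts was 3.08 CPM in EOM mural and 3.50 CPM in QFM mural nuclei.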
